A study of Homo sapiens with 9 samples.

Results

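The genes described here were 48 genes of the transforming growth factor beta (TGF-beta), bone morphogenetic protein (BMP) and SMAD pathway, taken as a fixed list of symbols and found among the 23619 gene symbols of each library. They comprised 10 ligands, 4 genes of ligand latency and processing, 10 receptors, 6 secreted antagonists, 5 signalling SMADs, 8 cellular inhibitors and 5 target genes. RNA was sequenced from RKO, a microsatellite-unstable human colorectal carcinoma line, with and without targeting of exon 9 of DIP2C (disco-interacting protein 2 homolog C). The 9 libraries were parental RKO samples 1 and 2, DIP2C-/- clones E3 and C10, and 5 DIP2C+/- clones, A6-C9, A9-A12, F6-A7, G1-A5 and H9-A4, all grown for 48 h before harvest. The study describes fewer DIP2C+/- clones than the labels list, so how many of these are independently targeted lines is not known. Each clone was 1 library, and both DIP2C-/- clones were derived from a DIP2C+/- clone by a second round of targeting, so they share an ancestor. Every targeted line was a single-cell clone, while parental RKO was the uncloned line, so loss of DIP2C and cloning cannot be told apart.

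In this pathway, secreted ligands are held latent or freed by binding proteins and proteases, and bind paired type I and type II receptor kinases. The TGF-beta and activin branch phosphorylates SMAD2 and SMAD3, the BMP branch SMAD1, SMAD5 and SMAD9, and both use SMAD4 to reach target genes. The branches are held in check by secreted antagonists, by inhibitory SMADs and by ubiquitin ligases such as the SMURF proteins. In colon epithelium the pathway restrains growth, and microsatellite-unstable colorectal tumours often carry frameshifts in the coding runs of TGFBR2 and ACVR2A, which were not examined here.

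The deposited values summed to 14772593 to 21486483 estimated counts per library, and 3 counts corresponded to 0.14 to 0.203 CPM (counts per 1000000). All CPM values below use library totals adjusted by TMM, the trimmed mean of M values, and lists of DIP2C+/- values keep the order of the clones above. DIP2C itself stood at 60.9 and 70.8 CPM in parental RKO, at 17.4 and 22.8 CPM in E3 and C10, and at 33.6 to 56.2 CPM in the DIP2C+/- clones. Of the colon epithelial markers, KRT8, KRT18 and CDX2 were at or above 1 CPM in every library, EPCAM reached at most 3.78 CPM, and KRT19, KRT20, CDH1 and VIL1 stayed under 1 CPM throughout, with the summed level of the 8 markers at 247 to 306 CPM in parental RKO, 150 to 184 CPM in DIP2C-/- and 182 to 331 CPM in DIP2C+/-. Summed levels were at most 7.45 CPM for 6 fibroblast markers, 2.87 CPM for 5 leukocyte markers and 4.77 CPM for 4 endothelial markers.

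One library stood apart. The chi-square of gene counts over its degrees of freedom was 116.86 to 136.72 between clone H9-A4 and the other DIP2C+/- clones, and 20.71 to 63.3 in every other pair of 1 genotype. Its DIP2C level, 56.2 CPM, was the highest of the clones, and its part in the results was not tested. The labels place it among the DIP2C+/- clones, and it was kept there in the tests with all 9 libraries. The fold changes of the members called without it are given with it as well. It was left out because of its measured distance from the other clones, so the results without it describe 6 clones that resemble each other.

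With all 9 libraries, none of the 40 members that could be tested passed an adjusted p of 0.05 by the edgeR quasi-likelihood test, in any comparison. Of all genes tested, 0.00644% were called between DIP2C-/- and parental, 0.0966% between DIP2C+/- and parental, 0.18% between all 7 clones and parental, and 0% between DIP2C+/- and DIP2C-/-. At an unadjusted p under 0.05 the members numbered 9, 5, 8 and 2 in these comparisons. The share of all genes at that threshold is not given here, so these counts cannot be read as an excess. DESeq2's Wald test called SMAD7 in the first 3 comparisons and ID3 in DIP2C-/-, with both lower than in parental RKO, and it called 0 members between DIP2C+/- and DIP2C-/-. The shares of all genes that DESeq2 called are not given here, and those above are edgeR's, so the DESeq2 calls cannot be read as an excess.

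Without H9-A4, 7 of 40 members (17.5%) passed between the 6 clones and parental RKO, against 8.95% of all genes. SMURF2 and BMP1 were higher, 5% of the members against 4.48% of all genes called in that direction. SMAD7, ID1, ID3, CHRD and LTBP1 were lower, 12.5% of the members against 4.47%. Between DIP2C+/- and parental 5 members passed (12.5%, against 7.95% of all genes), with SMURF2 and BMP1 higher (4.37% of all genes) and SMAD7, CHRD and ACVR2B lower (3.58%). Between DIP2C-/- and parental 3 members passed (7.5%, against 4.76% of all genes), with SMURF2 higher (2.32%) and SMAD7 and ID3 lower (2.44%). The share of members called was above that of all genes in each comparison, and that excess was not tested. The 3 comparisons use the same parental libraries, and the first pools the clones of the other 2. They are therefore not separate results. In bulk RNA, fewer cells with a transcript and less of it per cell cannot be told apart.

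**Figure D1:**
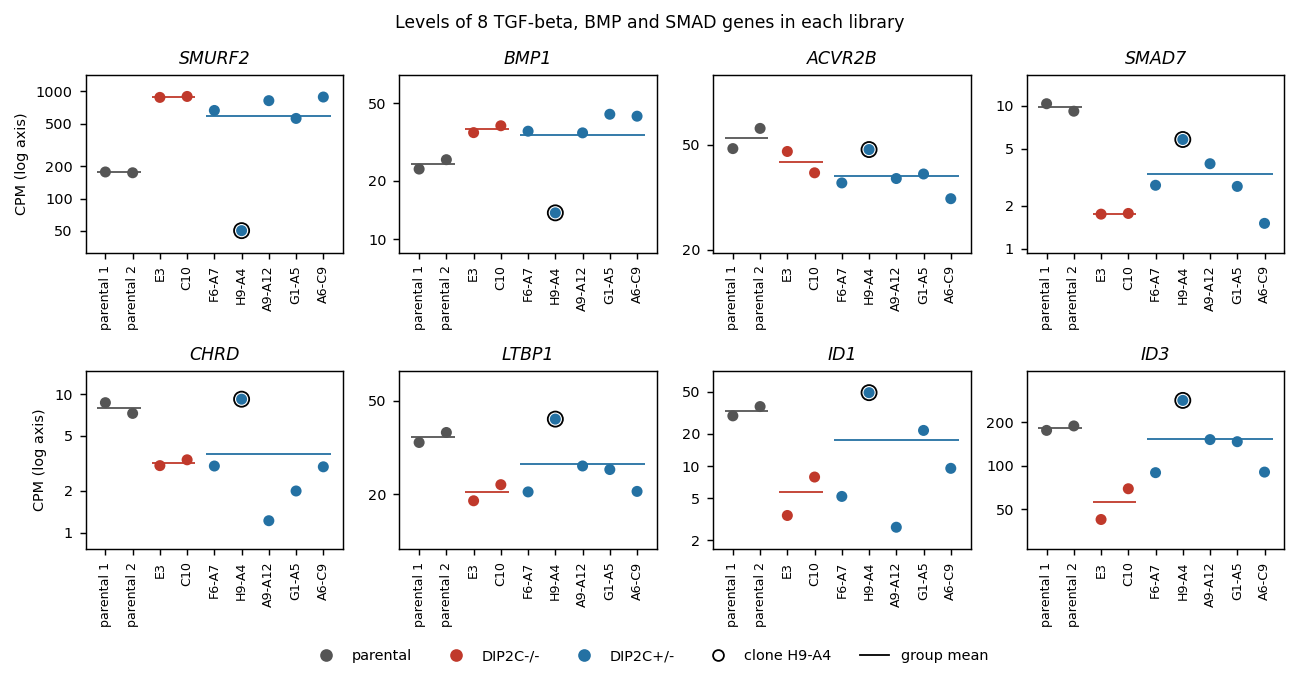
Level of the 8 members called without clone H9-A4, in CPM on a log axis, with 1 point per library and a line at each group's mean. SMURF2 and BMP1 lie above parental RKO and the other 6 genes below it in most clones, while the circled clone H9-A4 lies below parental RKO for SMURF2 and BMP1 and at or above it for CHRD, LTBP1, ID1 and ID3.

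Of the called members, the inhibitory SMAD7 and the ID genes that BMP signalling is best known to induce were lower in the 6 clones, and the ubiquitin ligase SMURF2 was higher. The 4 sequences below are the 250 bases before the starts of these genes. They come from the RefSeq promoter table (GRCh38.p14) and were placed on GRCh37, the build of the deposited data, by a unique exact match, at chr18:46477336-46477585 (minus strand) for SMAD7, chr20:30192842-30193091 (plus) for ID1, chr1:23885993-23886242 (minus) for ID3 and chr17:62658426-62658675 (minus) for SMURF2. Each is written 5′ to 3′ on the gene's strand. Capitals mark matches on either strand to 3 letter strings: the palindrome GTCTAGAC and CAGAC, which SMAD3 and SMAD4 are known to bind, and GGCGCC, a GC-rich element bound by BMP SMADs.
SMAD7: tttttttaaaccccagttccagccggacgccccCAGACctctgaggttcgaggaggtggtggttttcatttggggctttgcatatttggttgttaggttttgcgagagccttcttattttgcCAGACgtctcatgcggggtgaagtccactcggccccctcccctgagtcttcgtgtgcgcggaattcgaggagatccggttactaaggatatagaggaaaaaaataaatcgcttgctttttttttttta
ID1: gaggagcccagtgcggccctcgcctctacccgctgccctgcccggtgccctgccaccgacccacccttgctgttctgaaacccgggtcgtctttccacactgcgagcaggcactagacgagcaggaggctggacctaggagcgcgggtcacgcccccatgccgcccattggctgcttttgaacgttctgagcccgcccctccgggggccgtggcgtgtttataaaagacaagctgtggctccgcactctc
ID3: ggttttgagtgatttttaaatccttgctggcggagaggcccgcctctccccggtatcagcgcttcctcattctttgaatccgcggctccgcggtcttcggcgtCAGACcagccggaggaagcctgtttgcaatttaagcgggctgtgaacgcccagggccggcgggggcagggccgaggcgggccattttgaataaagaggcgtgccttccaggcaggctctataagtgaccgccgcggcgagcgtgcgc
SMURF2: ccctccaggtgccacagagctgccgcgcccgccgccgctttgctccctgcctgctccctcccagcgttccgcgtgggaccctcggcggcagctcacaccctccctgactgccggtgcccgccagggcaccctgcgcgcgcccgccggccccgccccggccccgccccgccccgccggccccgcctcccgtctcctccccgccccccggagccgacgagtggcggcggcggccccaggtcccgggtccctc

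In these windows SMAD7 held CAGAC at 2 places, starting at -217 and -128 from the gene's start (-1 is the last base before it), and ID3 held it once, at -147. ID1 and SMURF2 held none of the 3 strings. Of the other members lower in the 6 clones, LTBP1 held CAGAC at 2 places, both on the opposite strand, and CHRD held GGCGCC once. Of 35116 promoters in the table, 38.0% held CAGAC, 16.4% GGCGCC and 0.182% GTCTAGAC within the same length, and no string contains another. SMURF2 had 33 CG pairs in the window, ID3 24, ID1 19 and SMAD7 13, against a median of 11 over all promoters. A match describes letters, and the files hold no measurement of binding.

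Among the cellular inhibitors, SMURF2 was high and SMAD7 low in most clones, and BAMBI was lower without passing the test. SMURF2, a ubiquitin ligase that marks SMADs and receptors for degradation, lies at chr17:62538400-62658425 on the minus strand. It was at 177 and 174 CPM in parental RKO, 876 and 894 CPM in E3 and C10, and 883, 817, 662, 558 and 50.3 CPM in A6-C9, A9-A12, F6-A7, G1-A5 and H9-A4. The 6 clones other than H9-A4 lay far above both parental samples with no overlap, and H9-A4 lay below them. The mean of the 6 clones, 782 ± 140 CPM (SD, n = 6), was 4.45 times that of parental RKO, 176 ± 1.92 CPM (SD, n = 2). The log2 fold change was 2.15 ± 0.19 (SE; edgeR adjusted p = 4.49e-05) without H9-A4 and 1.92 ± 0.76 (edgeR adjusted p = 0.329) with it.

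SMAD7, the inhibitory SMAD that blocks type I receptors and is itself induced by the pathway, lies at chr18:46446223-46477335 on the minus strand. Its levels were 10.3 and 9.13 CPM in parental RKO, 1.74 and 1.76 CPM in E3 and C10, and 1.5, 3.92, 2.77, 2.72 and 5.79 CPM in the DIP2C+/- clones. All 7 clones lay below both parental samples, with H9-A4 nearest to them. The log2 fold change of the 6 clones was -2.04 ± 0.33 (SE; edgeR adjusted p = 0.00323), and that of all 7 was -1.81 ± 0.39 (edgeR adjusted p = 0.168; DESeq2 adjusted p = 0.00249).

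BAMBI, a decoy receptor without a kinase domain, stood at 9.84 and 10.9 CPM in parental RKO, 3.92 and 4.74 CPM in E3 and C10, and 7.78, 2.87, 3.79, 5.32 and 8.93 CPM in the DIP2C+/- clones. All 7 clones were below both parental samples, but the difference did not pass the test with or without H9-A4 (log2 fold change -1.13 ± 0.34 without it, SE; edgeR adjusted p = 0.0626). SMAD6, the inhibitory SMAD of the BMP branch, was at 0.34 to 1.12 CPM in 6 clones and 5.79 CPM in F6-A7, against 1.58 and 1.69 CPM in parental RKO. SMURF1, SKI, SKIL and TGIF1, a second ubiquitin ligase and 3 nuclear corepressors, had log2 fold changes of -0.14 to 0.40 in the 6 clones, and none passed.

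The target genes measured were the ID genes, inhibitors of helix-loop-helix transcription factors induced by BMP signalling, and TGFBI, an extracellular matrix protein. ID1 was at 29.6 and 36.2 CPM in parental RKO, 3.43 and 7.88 CPM in E3 and C10, and 9.51, 2.66, 5.18, 21.6 and 48.9 CPM in A6-C9, A9-A12, F6-A7, G1-A5 and H9-A4. The 6 clones lay below parental RKO but spread widely among themselves, and H9-A4 was the highest of the 9 libraries. The log2 fold change was -2.01 ± 0.54 (SE; edgeR adjusted p = 0.0408) without H9-A4 and -1.37 ± 0.76 (edgeR adjusted p = 0.459) with it.

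ID3 was at 176 and 189 CPM in parental RKO, 42.5 and 69.4 CPM in E3 and C10, and 90.5, 152, 89.7, 147 and 284 CPM in the DIP2C+/- clones. It showed the same order as ID1 between H9-A4, parental RKO and the 6 clones, and both DIP2C-/- clones lay below every DIP2C+/- clone. Over the 6 clones the log2 fold change was -0.97 ± 0.23 (SE; edgeR adjusted p = 0.023), and that of all 7 was -0.67 ± 0.37 (edgeR adjusted p = 0.451). In DIP2C-/- it was -1.70 ± 0.30 without H9-A4 in the fit (edgeR adjusted p = 0.00956) and -1.70 ± 0.49 with it (edgeR adjusted p = 0.315), and in DIP2C+/- it was -0.61 ± 0.25 (edgeR adjusted p = 0.177) and -0.26 ± 0.39 (edgeR adjusted p = 0.843). The difference of DIP2C+/- from DIP2C-/- was 1.10 ± 0.27 on the log2 scale without H9-A4 and 1.45 ± 0.43 with it, and neither passed over all genes (edgeR adjusted p = 0.679 and 0.878). ID2 was at 6.18 and 3.78 CPM in parental RKO, 3 and 2.24 CPM in E3 and C10, and 3.91, 2.45, 2, 4.77 and 2.61 CPM in the DIP2C+/- clones, where A6-C9 and G1-A5 overlapped parental RKO. ID4 and TGFBI were at most 0.58 CPM in every library and were not tested.

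**Figure D2:**
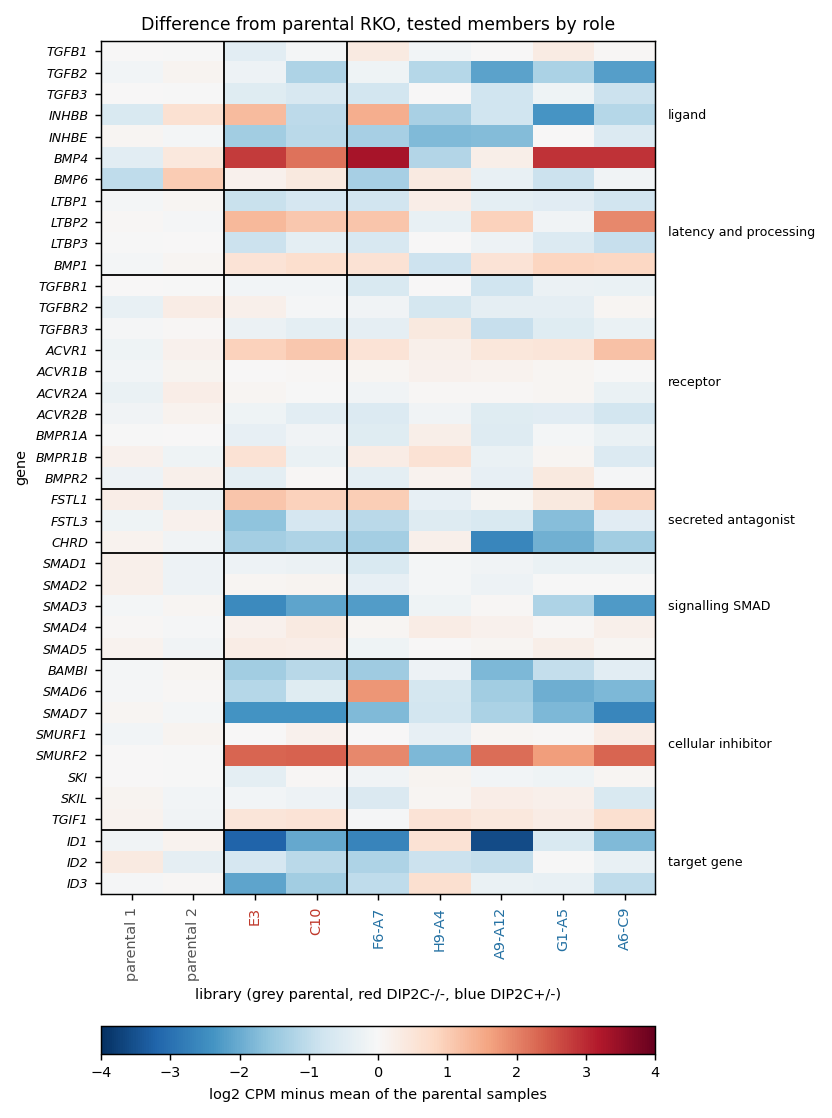
Log2 CPM of each library minus the mean of the parental samples, for the 40 tested members grouped by role, with red above and blue below parental RKO. The SMURF2 row is red in the 6 clones other than H9-A4, the SMAD7 row is blue in all 7, and the SMAD3 row is near 0 in A9-A12 and H9-A4. The receptor block is pale, from -0.91 (TGFBR3 in A9-A12) to 1.18 (ACVR1 in A6-C9).

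Among the 5 signalling SMADs of the list, SMAD3 alone lay more than 2-fold from parental RKO in any clone, and its level differed widely between clones. SMAD3, the transcription factor of the TGF-beta branch at chr15:67356101-67487511, stood at 69.3 and 78.5 CPM in parental RKO, 12.6 and 17 CPM in E3 and C10, and 15.2, 75.8, 15.6, 31 and 64.9 CPM in A6-C9, A9-A12, F6-A7, G1-A5 and H9-A4. A9-A12 lay between the parental samples and H9-A4 just below them, while the other 5 clones were at 31 CPM or less. The log2 fold change did not pass without H9-A4, at -1.51 ± 0.47 (SE; edgeR adjusted p = 0.0734), nor did that of DIP2C-/-, at -2.32 ± 0.65 (edgeR adjusted p = 0.0718). With all 9 libraries they were -1.28 ± 0.51 (edgeR adjusted p = 0.329) and -2.32 ± 0.72 (edgeR adjusted p = 0.318). SMAD4, the shared partner SMAD, was at 67.1 and 63 CPM in parental RKO, 73.2 and 83.2 CPM in E3 and C10, and 75.3, 73.3, 68.9, 67.5 and 79.5 CPM in the DIP2C+/- clones. SMAD1, a BMP SMAD, was at 48 and 36.1 CPM in parental RKO, 35.9 and 35.3 CPM in E3 and C10, and 34.4, 37.5, 27.3, 34.5 and 39.4 CPM in the DIP2C+/- clones, with H9-A4 and A9-A12 between the parental samples. SMAD1, SMAD2, SMAD4 and SMAD5 had log2 fold changes of -0.30 to 0.18 in the 6 clones, none of which passed.

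Of the 10 ligands 7 were tested, and none passed in either set of clones. BMP4, a BMP ligand at chr14:54416454-54425479, was at 0.341 and 0.698 CPM in parental RKO, 4.06 and 2.61 CPM in E3 and C10, and 4.35, 0.591, 5.79, 4.38 and 0.161 CPM in A6-C9, A9-A12, F6-A7, G1-A5 and H9-A4. BMP4 was near the floor in parental RKO, where 3 counts correspond to 0.17 and 0.157 CPM. It was high in 5 clones and at the parental level or below it in A9-A12 and H9-A4, the same pair of clones in which SMAD3 was near its parental level. For the 6 clones the log2 fold change was 2.82 ± 0.80 (SE; edgeR adjusted p = 0.0518), and that of all 7 was 2.61 ± 1.14 (edgeR adjusted p = 0.358). TGFB1 showed no such split, at 23.5 and 23.3 CPM in parental RKO, 17.5 and 22 CPM in E3 and C10, and 24.2, 23.4, 29.7, 29.1 and 21.6 CPM in the DIP2C+/- clones, on both sides of parental RKO. TGFB3 was at 9.41 and 9.3 CPM in parental RKO, 6.58 and 5.91 CPM in E3 and C10, and 5.07, 5.32, 5.64, 8.26 and 9.41 CPM in the DIP2C+/- clones. The 6 clones lay below parental RKO and H9-A4 at its level (log2 fold change of the 6 clones -0.61 ± 0.25, SE; edgeR adjusted p = 0.178). TGFB2, INHBB, INHBE and BMP6 did not exceed 1.44 CPM in any library, and INHBA, BMP2 and BMP7 were too low to test.

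Latency and processing genes moved in both directions. BMP1, a protease that cuts procollagens and the BMP antagonist chordin, was at 23 and 25.7 CPM in parental RKO, 35.4 and 38.4 CPM in E3 and C10, and 43, 35.3, 36, 44 and 13.7 CPM in the DIP2C+/- clones. Its log2 fold change was 0.67 ± 0.15 in the 6 clones (SE; edgeR adjusted p = 0.0211) and 0.53 ± 0.35 in all 7 (edgeR adjusted p = 0.527), while H9-A4 lay below parental RKO. LTBP1, which tethers latent TGF-beta to the matrix, lies at chr2:33172020-33624576 and was at 33.2 and 36.6 CPM in parental RKO, 18.8 and 22 CPM in E3 and C10, and 20.6, 26.4, 20.5, 25.5 and 41.7 CPM in the DIP2C+/- clones. Its log2 fold change was -0.65 ± 0.16 in the 6 clones (SE; edgeR adjusted p = 0.0277) and -0.49 ± 0.25 in all 7 (edgeR adjusted p = 0.417), and H9-A4 lay above parental RKO. LTBP2, a related matrix protein, was at 2.30 and 2.09 CPM in parental RKO, 5.51 and 4.74 CPM in E3 and C10, and 8.65, 4.22, 4.87, 2 and 1.77 CPM in the DIP2C+/- clones, where G1-A5 and H9-A4 stayed at or below the parental level. It did not pass (log2 fold change 1.18 ± 0.49 in the 6 clones, SE; edgeR adjusted p = 0.173).

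Of the secreted antagonists, CHRD and FSTL3 were expressed above 1 CPM. CHRD encodes chordin, which binds BMPs and is cut by BMP1, and lies at chr3:184097842-184108524. It was at 8.69 and 7.27 CPM in parental RKO, 3.05 and 3.36 CPM in E3 and C10, and 2.99, 1.22, 3.03, 2 and 9.21 CPM in the DIP2C+/- clones. The 6 clones lay below parental RKO without overlap and H9-A4 above it, in the opposite direction to BMP1 on both counts. The log2 fold change of the 6 clones was -1.62 ± 0.35 (SE; edgeR adjusted p = 0.0148), and that of all 7 was -1.17 ± 0.56 (edgeR adjusted p = 0.396). FSTL3, a follistatin-like activin antagonist, was at 22.3 and 28.7 CPM in parental RKO, 8.27 and 15.8 CPM in E3 and C10, and 18.5, 16.7, 11.8, 7.7 and 17.7 CPM in the DIP2C+/- clones. All 7 clones lay below both parental samples, and the difference did not pass (log2 fold change of the 6 clones -0.96 ± 0.31, SE; edgeR adjusted p = 0.0844). FSTL1 was at most 0.629 CPM in any library, and FST, NOG and GREM1 were not tested.

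Of the 10 receptors, ACVR2B was lower and ACVR1 higher than in parental RKO, each in only some of the fits, and 8 did not pass in any of the fits given here. ACVR2B, a type II activin receptor at chr3:38495381-38534633, was at 48.3 and 57.6 CPM in parental RKO, 47.1 and 39.1 CPM in E3 and C10, and 31.2, 37.2, 35.8, 38.7 and 47.9 CPM in the DIP2C+/- clones. It passed in DIP2C+/- without H9-A4, with a log2 fold change of -0.57 ± 0.15 (SE; edgeR adjusted p = 0.0462), and with H9-A4 it was -0.47 ± 0.18 (edgeR adjusted p = 0.399). ACVR1, a type I BMP receptor, was at 5.54 and 6.92 CPM in parental RKO, 11.8 and 13.3 CPM in E3 and C10, and 14.2, 8.52, 9.18, 8.72 and 7.08 CPM in the DIP2C+/- clones. All 7 clones lay above both parental samples, and C10 and A6-C9 were at least 2-fold above their mean. In the 6 clones the log2 fold change, 0.80 ± 0.27, did not pass (SE; edgeR adjusted p = 0.0906), while in the fit of DIP2C-/- and parental RKO alone it was 0.99 ± 0.25 (edgeR adjusted p = 0.0333). TGFBR1, the type I TGF-beta receptor, was at 96.1 and 93.3 CPM in parental RKO, 88 and 87.6 CPM in E3 and C10, and 77.9, 54.2, 62, 79.7 and 94.5 CPM in the DIP2C+/- clones. TGFBR2, its type II partner, was at 9.63 and 14.4 CPM in parental RKO and 7.20 to 13.6 CPM in the clones, and neither receptor passed. The remaining 6 receptors had log2 fold changes of -0.43 to 0.06 in the 6 clones, and none passed.

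**Figure D3:**
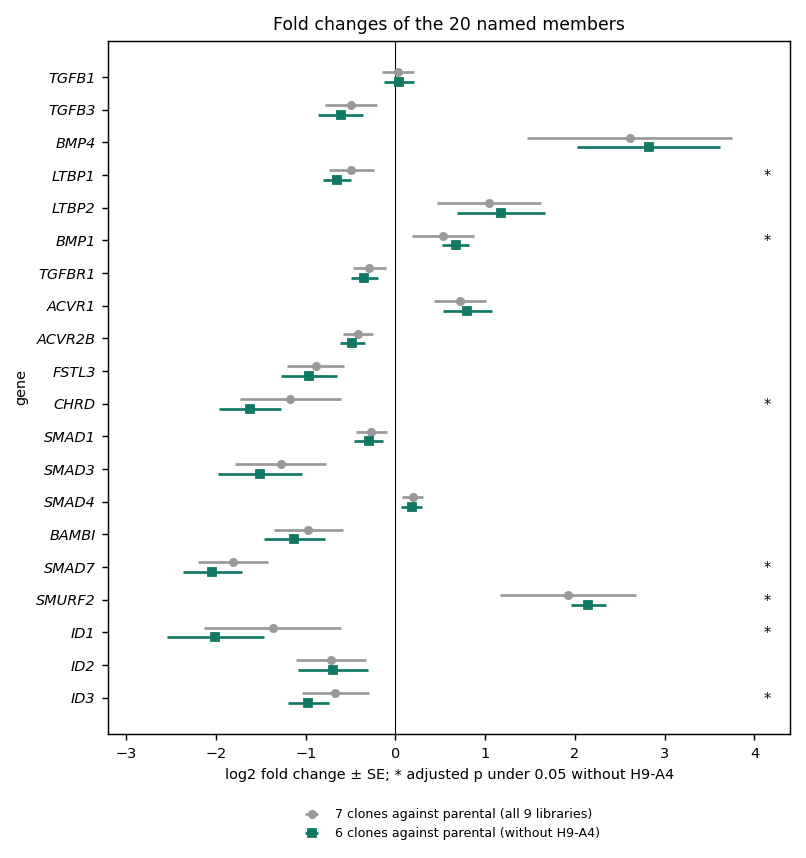
Log2 fold change of clones against parental RKO with its standard error for the 20 members named by rule, with all 9 libraries in grey and without clone H9-A4 in green. Leaving out H9-A4 shortens the error bar of SMURF2 from 0.76 to 0.19 and that of BMP1 from 0.35 to 0.15, and asterisks mark the 7 members with an adjusted p under 0.05.

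By role, the median log2 fold change of the 6 clones was -0.609 for 7 ligands, 0.048 for 4 latency and processing genes, -0.117 for 10 receptors, -0.961 for 3 secreted antagonists, -0.072 for 5 signalling SMADs, -0.122 for 8 cellular inhibitors and -0.972 for 3 target genes. With so few genes, the medians of the ligands, secreted antagonists and target genes are the values of TGFB3, FSTL3 and ID3. The ligands TGFB2, INHBB, INHBE and BMP6 did not exceed 1.44 CPM in any library. Over the 40 members the median was -0.174, with 27 negative and 13 positive, against a median of 0.012 over all genes tested. On a scale of CPM per kilobase of annotated exons, ID3 was the most abundant member in parental RKO at 122, followed by ID1 at 26.7 and SMURF2 at 24.4. TGFB1 led the ligands at 7.16, and TGFBR1 led the receptors at 11.9. The 2 parental libraries are too few to order neighbouring genes.

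Read clone by clone, 12 members (30%) in A6-C9, 8 (20%) in A9-A12, 15 (37.5%) in F6-A7 and 9 (22.5%) in G1-A5 were at least 2-fold from the parental mean, as were 14 (35%) in C10 and 14 (35%) in E3. The shares of all genes past the same fold were 14.1% in A6-C9, 13.8% in A9-A12, 14.1% in F6-A7, 12.1% in G1-A5, 11.8% in C10 and 14.3% in E3. In H9-A4 it was 5 members (12.5%), all lower, against 7.39% of all genes, and these were TGFB2, INHBB, INHBE, BMP4 and SMURF2. All but SMURF2 were near the floor. They were at most 1.4 CPM in parental RKO and 0.121 to 0.523 CPM in H9-A4, where 3 counts correspond to 0.171 CPM. Such low genes also enter the counts of the other 6 clones, each of which includes INHBB or INHBE, at most 1.44 CPM in any library. The parental samples were 2-fold apart for 2 members (5%), INHBB and BMP6, against 7.79% of all genes. Members were more often lower than higher in each of the 7 clones, and 1 library per clone allows no test.

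Across the groups, ACVR1 and SMAD4 were above both parental samples in all 7 clones, 5% of the members against 5.34% of all genes. TGFB2, ACVR2B, FSTL3, BAMBI and SMAD7 were below both in all 7 clones, 12.5% against 5.56%. Without H9-A4, 4 members lay above (10%, against 12.4% of all genes), with BMP1 and SMURF2 added. Below lay 14 members (35%, against 11.5%), with TGFB3, LTBP1, LTBP3, TGFBR1, TGFBR3, BMPR1A, CHRD, ID1 and ID3 added. The share above was near that of all genes, and the share below exceeded it.

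**Figure D4:**
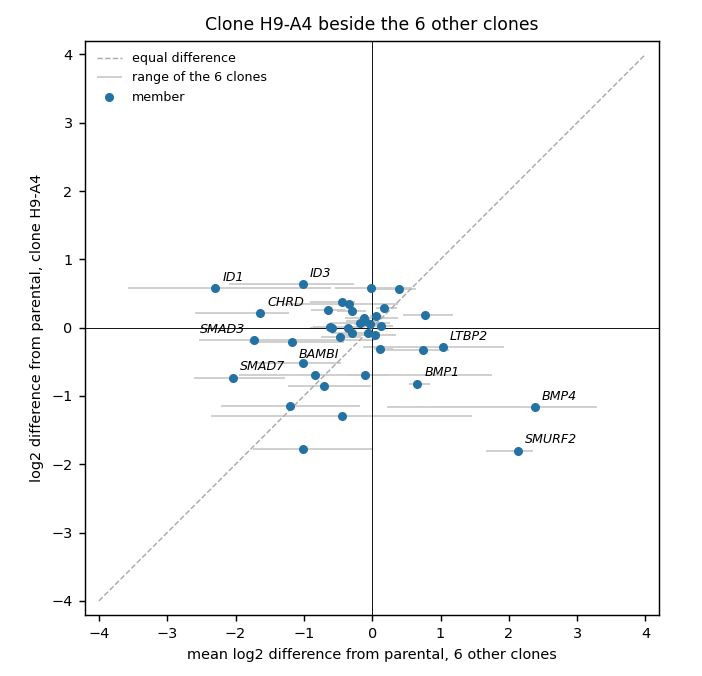
Log2 difference of clone H9-A4 from the parental mean (vertical axis) against the mean difference of the 6 other clones (horizontal axis) for the 40 tested members, with grey bars over the range of the 6 clones. SMURF2, BMP1 and BMP4 lie at the lower right, ID1, ID3 and CHRD at the upper left, and SMAD7 near -2.04 and -0.74.

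The genotypes did not separate by the test. Between DIP2C+/- and DIP2C-/-, 0 members passed with all 9 libraries and 0 without H9-A4, where 0% of all genes passed in edgeR. At an unadjusted p under 0.05 the members numbered 2 and 3, again without the share of all genes at that threshold. In a fit of the DIP2C-/- clones and parental RKO alone, 12 of 39 members passed: SMURF2, BMP1, BMP4 and ACVR1 were higher (10.3%, against 5.74% of all genes) and SMAD3, SMAD7, ID1, ID3, BAMBI, CHRD, FSTL3 and LTBP1 lower (20.5%, against 6.82%). That fit takes its spread from E3 and C10, which share an ancestor, and from the parental samples. In it SMAD3 had a log2 fold change of -2.33 ± 0.17 (SE; edgeR adjusted p = 5.7e-05). BMP4 was near the floor in parental RKO, at 0.341 and 0.698 CPM, where 3 counts correspond to 0.17 and 0.157 CPM. It could pass the filter on low counts through E3 and C10, where it was high, so its place among the members called higher says little.

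A second list held 66 other genes of the pathway, of which 46 were tested. With all 9 libraries 0 were called. Between all clones and parental RKO 12 had an unadjusted p under 0.05, a count given without the share of all genes at that threshold. Without H9-A4 the genes called included RGMB and LTBP4, which were higher, and CTGF, PMEPA1, TAGLN, NEDD4L, SMAD9 and TWSG1, which were lower. In each comparison with parental RKO without H9-A4, at most 4.48% of all genes were called higher and at most 4.47% lower. The share of this list was not set against these values. TGF-beta is known to induce CTGF, PMEPA1 and TAGLN, which are named here because they were called. Other target genes of this list did not all fall. JUNB, CDKN2B and MSX1 had mean log2 differences from parental RKO of 0.12, -0.16 and 0.17 in the 6 clones. For HEY1, MSX2 and ATOH8 they were -1.0, -0.58 and -1.63, and none of these genes was called. CTGF, a matricellular protein, was at 29.1 and 29.4 CPM in parental RKO, 0.464 to 2.60 CPM in the 6 clones and 10.9 CPM in H9-A4. PMEPA1, which binds receptor SMADs and limits signalling, was at 7.28 and 7.39 CPM in parental RKO, 0.241 to 0.725 CPM in the 6 clones and 5.63 CPM in H9-A4. For CTGF and PMEPA1, H9-A4 lay between parental RKO and the 6 clones.

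RGMB, a BMP co-receptor, was at 26.7 and 28.5 CPM in parental RKO, 51.7 to 240.0 CPM in the 6 clones and 21.4 CPM in H9-A4, with A9-A12 the lowest of the 6. The log2 fold changes of the 6 clones were -4.78 ± 0.44 for CTGF (SE; edgeR adjusted p = 6.6e-05), -4.01 ± 0.41 for PMEPA1 (edgeR adjusted p = 0.000138) and 2.56 ± 0.42 for RGMB (edgeR adjusted p = 0.00353). With all 9 libraries they were -3.83 ± 0.79 for CTGF (edgeR adjusted p = 0.132), -2.74 ± 0.90 for PMEPA1 (edgeR adjusted p = 0.304) and 2.34 ± 0.71 for RGMB (edgeR adjusted p = 0.282). SMAD9, the third BMP SMAD, was at 26 and 19.8 CPM in parental RKO, 8.44 to 15.7 CPM in the 6 clones and 26.9 CPM in H9-A4. NEDD4L, a ubiquitin ligase that acts on activated SMAD2 and SMAD3, was at 142 and 148 CPM in parental RKO and 52 to 95.1 CPM in all 7 clones.

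TAGLN, an actin-binding protein, was at 88.8 and 82 CPM in parental RKO, 11.8 and 13.2 CPM in E3 and C10, and 15.4, 33.9, 10.2, 5.06 and 70.1 CPM in the DIP2C+/- clones. All 7 clones lay below both parental samples, with H9-A4 nearest (log2 fold change of the 6 clones -2.53 ± 0.44, SE; edgeR adjusted p = 0.00524; that of all 7 -1.98 ± 0.65, edgeR adjusted p = 0.304). TWSG1, a BMP-binding protein, was at 71.3 and 65.4 CPM in parental RKO, 39.7 and 46.7 CPM in E3 and C10, and 40.4, 43.1, 35.4, 57 and 55.7 CPM in the DIP2C+/- clones, and LTBP4, a latent TGF-beta binding protein, was at 9.07 and 14.4 CPM in parental RKO, 17 and 20.6 CPM in E3 and C10, and 23.3, 22.2, 19.5, 21.3 and 14 CPM in the DIP2C+/- clones. On average over the 6 clones both moved by less than 2-fold, TWSG1 down and LTBP4 up. In A6-C9 alone LTBP4 was 1.02 above the parental mean on the log2 scale. The H9-A4 value of LTBP4 lay between the parental samples.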

How the data were processed

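Total RNA of 9 RKO cultures was sequenced by the authors on the Ion Proton system, aligned to hg19 with TopHat2 2.0.4 and quantified with Cufflinks, given as version 2.2.1 in the submitters' processing notes. Each deposited file lists 1 estimated count for each gene symbol, and how these were written from Cufflinks is not given in the sources used here. Low values were whole multiples of 1 step per library for 97.96 to 98.51% of them (tolerance 0.02 of a step), so scaling by a constant can shift the weight of a test, and a fit on the implied whole reads (17134472 to 24863894 per library) was an alternative.

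Values were rounded, filtered with filterByExpr (15532 genes, 15390 without H9-A4), normalized by TMM and fitted with 1 coefficient per group in edgeR 4.0.16 (R 4.3.3, quasi-likelihood F test, Benjamini-Hochberg adjustment over all genes tested, call at 0.05). The contrast of all clones weights each clone equally. Log2 CPM used a prior count of 2 where single clones were compared. DESeq2 1.42.0 was an alternative. Genes were placed with GENCODE 44 lifted to GRCh37, the assembly of hg19. On simulated counts with a coefficient of variation of 0.3 in all 9 libraries, genes changed by 2 on the log2 scale were recovered in 99 of 100 cases for all clones against parental, 98 for DIP2C+/- and 82 for DIP2C-/-, with 9, 7 and 8 false calls among 15235 genes. Only well-counted genes were changed there, and no simulated clone stood apart as H9-A4 did. These shares therefore do not give the recovery in the real libraries. Standard errors come from the fits and include the fitted spread between libraries, while the floor of 3 counts covers counting error only. No batch or date is given, and the strand of the libraries is not given in the sources used here, so overlapping genes cannot be told apart. P-values measure the spread between these libraries, which may be technical for the parental samples.

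The members, the lists and the removal of H9-A4 were chosen with earlier results of these data known. Members given with every sample are those called in either set of libraries and, in each role, the 3 with mean CPM of at least 1 and the largest absolute log2 fold change of all clones against parental. Others named were chosen after their values were seen. No file was left out, and 1 gene of the second pathway list is not reported here.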

Additional observations from a re-analysis of the deposited data

Results flagged for a closer look

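In each group of 4 to 10 samples, which here means the 5 DIP2C+/- clones, a member was listed where the gap between its highest or lowest sample and the nearest other, divided by the range, was above 0.71, Dixon's critical value for 5 samples. Chance gives about 1 in 20 genes. Of 40 members 2 were listed, against 7.28% of 15532 genes, and the far sample was H9-A4 in both. SMURF2 was at 50.3 CPM in H9-A4 and at 558 to 883 CPM in the other DIP2C+/- clones. BMP1 was at 13.7 CPM in H9-A4 and at 35.3 to 44 CPM in the others.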

How the results depend on the processing

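The counts of members called rested on clone H9-A4. Leaving out 1 library at a time gave 0 to 3 members in DIP2C-/-, 0 to 5 in DIP2C+/- and 0 to 7 over all clones, with the highest count in each without H9-A4. DESeq2's Wald test called 2, 1 and 1, counts given without its share of all genes. A fit of only the groups compared called 12 in DIP2C-/-. Counts over all genes ranged from 0 to 1807 in DIP2C-/-, 1 to 1224 in DIP2C+/-, 1 to 1378 over all clones and 0 to 6 between genotypes. Other normalizations, filters on low counts, whole reads and a 2-fold minimum left all member counts at 0. At 4-fold in place of 2-fold, the members past the fold were 6 in E3, 5 in C10, 3 in F6-A7, 0 in H9-A4, 4 in A9-A12, 2 in G1-A5 and 5 in A6-C9. The shares of all genes past 4-fold are not given here, so these counts cannot be read as an excess. The members above both parental samples were 4 without H9-A4 and 1 with library size only, and those below were 14 without H9-A4. No fold change of a called member changed sign in any alternative. No paired analysis was possible because the clones carry no replicate numbers shared with the parental samples. With 2 parental libraries, small changes of genes near 1 CPM were not detectable.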
